A study of Mus musculus with 8 samples.

Results

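Intraepithelial lymphocytes are T cells that lie between the epithelial cells of the gut, and their marker genes were followed here in RNA of sorted mouse intestinal epithelium. The genes were taken by name as 10 rows of the count tables: the CD3 chains Cd3e, Cd3d and Cd3g, the CD8 chains Cd8a and Cd8b1, the adhesion and residency genes Itgae and Cd69, the granzymes Gzma and Gzmb, and the chemokine Ccl5. All 10 of 10 were found among 23366 gene symbols and all passed the filter on low counts. The study compared Sox4cKO mice, which carry Sox4 fl/fl alleles and villin-Cre, with littermate control mice that carry the same Sox4 fl/fl alleles without Cre, so floxed Sox4 is shared by both genotypes. All animals were males of 6 weeks. From each animal CD326+ cells were sorted into a CD44plus gate, enriched for crypt cells, and a CD44minus gate, enriched for villus cells, with 50000 cells per library. The 4 groups were Sox4cKO CD44plus, control CD44plus, Sox4cKO CD44minus and control CD44minus, each with 2 libraries from 2 different mice, and both gates of a mouse were sequenced. The villin promoter drives Cre in the intestinal epithelium from embryonic life on, and no Cre for lymphocytes is named in the labels.

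The CD3 chains form the signalling part of the T cell receptor complex, and CD8 is the coreceptor that binds class I antigen-presenting molecules. Most small intestinal intraepithelial lymphocytes carry CD8, often as a pair of alpha chains in place of the alpha and beta pair of circulating T cells. They are held to epithelial E-cadherin by an integrin whose alpha chain Itgae encodes, keep the residency marker CD69, and store granzymes and the chemokine CCL5 for rapid release. CD326, also called EpCAM, is a surface protein of epithelial cells, and the sort was meant to hold epithelium alone.

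The 10 genes were counted in libraries of unequal depth and quality. Gene counts ranged from 7679575 to 13238050 in Sox4cKO CD44plus, from 6007554 to 12249272 in control CD44plus, from 1175251 to 6963345 in Sox4cKO CD44minus and from 886194 to 2327002 in control CD44minus. Between 64.6% and 96.6% of uniquely placed reads fell in no counted gene. The 2 Sox4cKO CD44minus libraries were the least alike pair: their counts differed by 57.7 times the Poisson variance, and their logged levels correlated at 0.779 across genes. The next least alike pair by that variance was Sox4cKO CD44plus, at 28.1 times. These measures do not tell which library of a pair differs. Sox4cKO CD44minus replicate 2 had the most gene counts and the lowest share of reads outside genes among the CD44minus libraries. Sox4 itself had 123 and 271 reads in Sox4cKO CD44plus, against 1438 and 658 reads in control CD44plus. Levels below are CPM, the share of gene counts in a library on one common scale, corrected by the trimmed mean of M values (TMM). Value pairs run from replicate 1 to replicate 2, and mice of different genotypes share only a replicate number.

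Where the genes lie and how their promoters read is given first. Overlap with neighbours bears on how reads are assigned to a gene, and the promoter motifs are description only. In GRCm38 with GENCODE M21, Cd3e (chr9:44998740-45009627, minus strand), Cd3d (chr9:44981786-44987339, plus strand) and Cd3g (chr9:44969572-44980431, minus strand) form a cluster in which the starts of Cd3g and Cd3d lie 1355 bp apart and point away from each other. Cd8a (chr6:71373427-71379173) and Cd8b1 (chr6:71322788-71337494) lie on the plus strand with 35933 bp between the end of Cd8b1 and the start of Cd8a. Itgae lies at chr11:73090583-73147446 (plus), Cd69 at chr6:129267325-129275436 (minus), Gzma at chr13:113093825-113100981 (minus), Gzmb at chr14:56258838-56262260 (minus) and Ccl5 at chr11:83525778-83530518 (minus). All are protein-coding genes, and exonic reads were counted. Of the 4080 exonic bases of Cd3e, 135 are covered by an antisense gene, whereas Haspin, which lies inside Itgae on the other strand, shares 0 exonic bases with it. Whether reads were counted by strand is not given in the sources used here. The granzymes belong to a family of similar genes, so reads that fit several of them could have been split or lost.

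RefSeq (GRCm38.p6) promoters, from 250 bases before to 50 bases after the gene start, were matched for 6 of the 10 genes: Cd3e, Cd3d, Cd3g, Cd8a, Gzma and Gzmb. The pair of CD3 chains and the granzyme pair below are shown because each pair shares a motif that the other pair lacks. Capitals mark AGGAAG, a core bound by Ets factors, or TGTGGT, a core bound by Runx factors, on either strand, so that the reverse strand reads CTTCCT or ACCACA. Cd3e is read from chr9:45009562-45009861 on the minus strand, Cd3d from chr9:44981536-44981835 on the plus strand, Gzma from chr13:113100932-113101231 on the minus strand and Gzmb from chr14:56262285-56262584 on the minus strand.
Cd3e: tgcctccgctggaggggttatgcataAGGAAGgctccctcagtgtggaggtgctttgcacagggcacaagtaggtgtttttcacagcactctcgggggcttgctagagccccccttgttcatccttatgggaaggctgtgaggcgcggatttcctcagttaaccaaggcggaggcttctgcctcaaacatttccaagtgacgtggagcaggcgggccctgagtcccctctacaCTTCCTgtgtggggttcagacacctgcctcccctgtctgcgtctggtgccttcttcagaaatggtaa
Cd3d: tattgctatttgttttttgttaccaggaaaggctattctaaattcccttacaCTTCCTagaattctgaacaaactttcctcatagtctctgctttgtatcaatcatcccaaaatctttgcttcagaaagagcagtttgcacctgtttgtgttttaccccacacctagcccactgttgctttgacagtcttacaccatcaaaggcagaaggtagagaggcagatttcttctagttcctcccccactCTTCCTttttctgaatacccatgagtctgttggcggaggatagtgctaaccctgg
Gzma: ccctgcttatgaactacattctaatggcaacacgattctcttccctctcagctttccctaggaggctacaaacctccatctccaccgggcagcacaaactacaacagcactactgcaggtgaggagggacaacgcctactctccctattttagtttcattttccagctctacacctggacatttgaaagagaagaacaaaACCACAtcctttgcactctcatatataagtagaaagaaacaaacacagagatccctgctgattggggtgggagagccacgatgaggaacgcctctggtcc
Gzmb: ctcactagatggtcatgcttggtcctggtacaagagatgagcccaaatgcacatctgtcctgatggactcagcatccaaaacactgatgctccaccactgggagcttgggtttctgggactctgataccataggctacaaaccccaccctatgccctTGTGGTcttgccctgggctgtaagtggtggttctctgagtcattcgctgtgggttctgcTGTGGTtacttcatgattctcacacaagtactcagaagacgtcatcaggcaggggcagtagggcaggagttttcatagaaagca
AGGAAG occurred in 2 of the 6 promoters, Cd3e and Cd3d with 2 matches each, and in 35.1% of all 27025 promoters. TGTGGT occurred in 2 of the 6, Gzma with 1 match and Gzmb with 2, and in 16.9% of all promoters. The other letters searched, on both strands, were GGAA (5 of the 6, which includes every AGGAAG, and 95.9% of all promoters), CANNTG (6 of the 6 and 72.1%), its subset CAGGTG (4 of the 6 and 20.03%), TATAAA (0 of the 6 and 14.2%), TGACGTCA (0 of the 6 and 1.88%) and its subset TGACGT (2 of the 6 and 7.64%). These matches describe letters in a window and are not binding sites.

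All 10 T lymphocyte genes had reads in all 8 libraries, though not always more than stray fragments would give, and all 10 were highest in the same library, Sox4cKO CD44plus replicate 2. Of the 20427 genes tested, 16.5% had their highest level there. That library also had the most gene counts, 13238050, and the lowest share of reads in no counted gene, 64.6%. The part of library quality in the levels was not tested. The summed level of the 10 genes was 2027 and 4822 CPM in Sox4cKO CD44plus and 1900 and 3017 CPM in control CD44plus, against 175 and 853 CPM in Sox4cKO CD44minus and 169 and 278 CPM in control CD44minus. In bulk RNA of this kind, fewer cells of a type and less RNA per cell cannot be told apart.

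**Figure D1:**
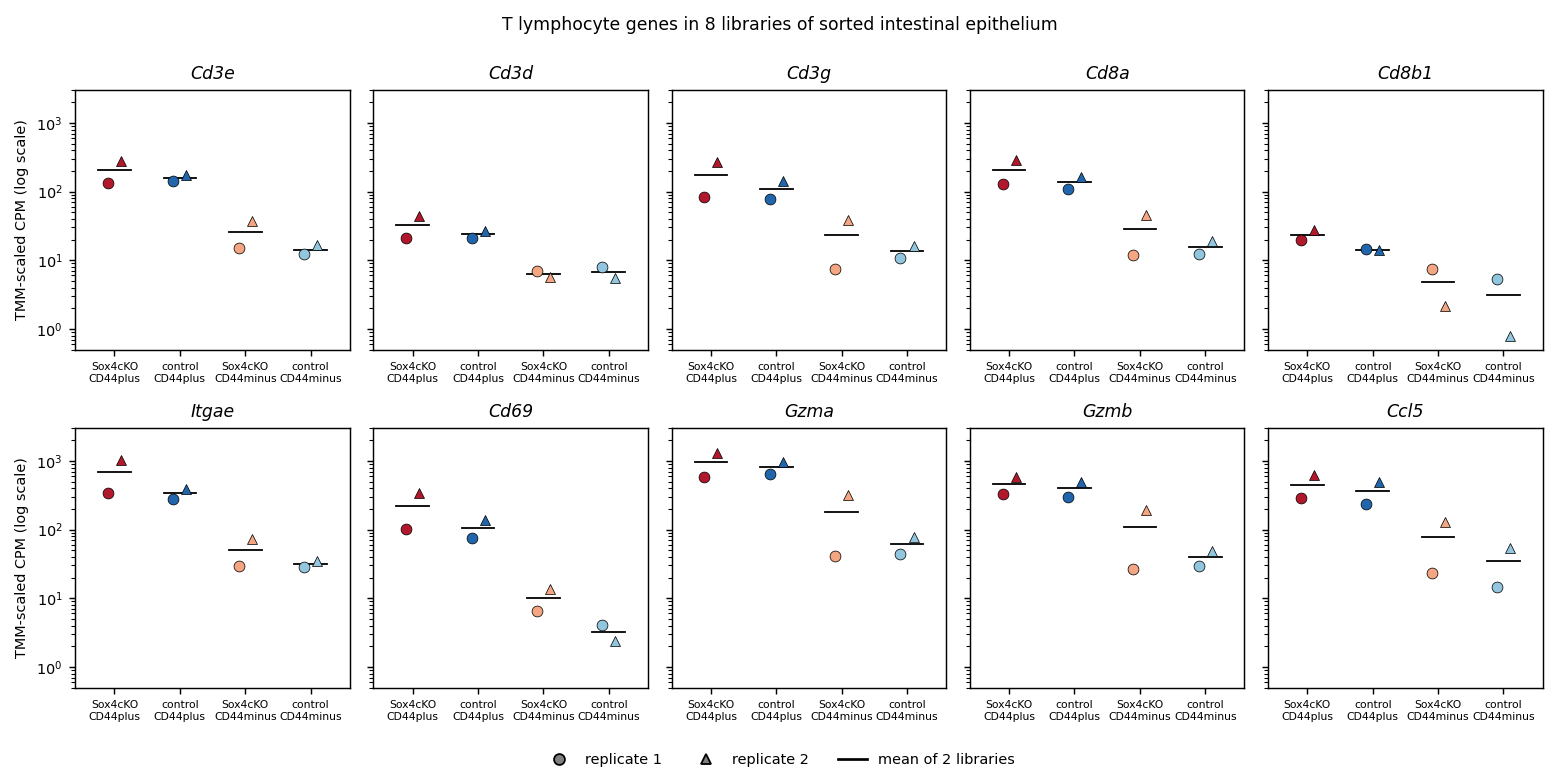
TMM-scaled CPM (log axis) of each of the 10 T lymphocyte genes in each library, by genotype and gate, with circles for replicate 1, triangles for replicate 2 and a line at the mean of the 2 libraries. Every gene is highest in the triangle of Sox4cKO CD44plus, and all 4 CD44plus libraries lie above the CD44minus libraries of the same genotype.

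Among the CD3 chains, Cd3e had 135 and 276 CPM in Sox4cKO CD44plus and 142 and 177 CPM in control CD44plus, against 14.8 and 37.0 CPM in Sox4cKO CD44minus and 12.1 and 16.5 CPM in control CD44minus. Cd3g, the gamma chain, had 83.7 and 269 CPM in Sox4cKO CD44plus and 77.9 and 142 CPM in control CD44plus, against 7.41 and 38.7 CPM in Sox4cKO CD44minus and 10.8 and 16.1 CPM in control CD44minus. Cd3d, the delta chain, had 21.1 and 44.0 CPM in Sox4cKO CD44plus and 20.9 and 27.01 CPM in control CD44plus, against 6.92 and 5.72 CPM in Sox4cKO CD44minus and 8.08 and 5.50 CPM in control CD44minus. For each chain the gates of a genotype did not overlap, and the genotypes overlapped within each gate. Replicate 2 exceeded replicate 1 by 2.04 to 3.21 times for the 3 chains in Sox4cKO CD44plus and by 1.25 to 1.82 times in control CD44plus.

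For the coreceptor, Cd8a had 127 and 287 CPM in Sox4cKO CD44plus and 109 and 163 CPM in control CD44plus, against 11.9 and 44.9 CPM in Sox4cKO CD44minus and 12.1 and 18.9 CPM in control CD44minus. Cd8b1, the beta chain, had 19.5 and 27.2 CPM in Sox4cKO CD44plus and 14.5 and 14.1 CPM in control CD44plus, against 7.41 and 2.18 CPM in Sox4cKO CD44minus and 5.38 and 0.786 CPM in control CD44minus. Cd8b1 was the only one of the 10 genes for which both Sox4cKO CD44plus libraries lay above both control CD44plus libraries, an order that 14.2% of all genes tested had. Per kb of exon, the level of Cd8b1 over that of Cd8a was 0.377 and 0.232 in Sox4cKO CD44plus and 0.325 and 0.211 in control CD44plus, so in all 4 libraries the alpha chain had the higher level. In the CD44minus gate this ratio was 1.53 and 0.119 in Sox4cKO and 1.09 and 0.102 in control, where Cd8b1 rested on 2 to 15 reads per library.

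Of the genes for staying in the epithelium, Itgae had 339 and 1043 CPM in Sox4cKO CD44plus and 277 and 395 CPM in control CD44plus, against 29.2 and 73.2 CPM in Sox4cKO CD44minus and 28.3 and 35.0 CPM in control CD44minus. Cd69, which encodes a surface lectin that keeps lymphocytes in tissue, had 102 and 345 CPM in Sox4cKO CD44plus and 74.6 and 138 CPM in control CD44plus, against 6.42 and 13.6 CPM in Sox4cKO CD44minus and 4.04 and 2.36 CPM in control CD44minus. For both genes replicate 2 of Sox4cKO CD44plus stood far above the other CD44plus libraries, at 3.08 times its partner for Itgae and 3.38 times for Cd69. In control CD44plus replicate 2 was at 1.43 times its partner for Itgae and 1.85 times for Cd69.

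Of the effector genes, Gzma, a granule protease, had 581 and 1324 CPM in Sox4cKO CD44plus and 646 and 972 CPM in control CD44plus, against 41.0 and 317 CPM in Sox4cKO CD44minus and 43.7 and 78.9 CPM in control CD44minus. Gzmb, the granule protease that starts death of target cells through caspases, had 331 and 591 CPM in Sox4cKO CD44plus and 302 and 491 CPM in control CD44plus, against 26.7 and 190.0 CPM in Sox4cKO CD44minus and 29.6 and 49.5 CPM in control CD44minus. Ccl5, a chemokine that attracts T cells, had 289 and 615 CPM in Sox4cKO CD44plus and 237 and 497 CPM in control CD44plus, against 23.2 and 131 CPM in Sox4cKO CD44minus and 14.8 and 54.2 CPM in control CD44minus. The genotypes overlapped for all 3 genes in both gates. Within Sox4cKO CD44minus, replicate 2 exceeded replicate 1 by 7.73 times for Gzma, 7.12 times for Gzmb and 5.64 times for Ccl5. For Cd3d and Cd8b1 replicate 2 had 0.826 and 0.294 of the level of replicate 1. These ratios depend on the TMM factors, 1.72 in replicate 1 and 0.528 in replicate 2. Without the factors the pairs were 70.6 and 167 CPM for Gzma, 45.9 and 100 for Gzmb and 40.0 and 69.1 for Ccl5. Cd3e (25.5 and 19.5), Itgae (50.2 and 38.6) and Cd69 (11.1 and 7.18) were then lower in replicate 2, while Cd3g and Cd8a stayed higher.

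Levels of different genes can be set side by side only per length, and per kb of exon the order in the 4 CD44plus libraries was led by the effectors. Mean levels were 875 CPM per kb for Gzma, 427 for Ccl5, 299 for Gzmb and 112 for Itgae, and each of these genes lay above the next in 4 of 4 libraries. Cd8a (47.2 CPM per kb), Cd3e (44.7) and Cd3g (43.7) followed close together, and the order of Cd8a over Cd3e and of Cd3e over Cd3g held in 3 of 4 libraries. Cd69 (25.3), Cd3d (15.6) and Cd8b1 (12.7) were lowest, again with neighbours in order in 3 of 4 libraries. In the CD44minus libraries Gzma (119 CPM per kb), Ccl5 (58.1) and Gzmb (51.5) led again, and Cd69 was last at 1.02 CPM per kb. Exons were merged over all transcripts, to 6509 bases for Cd69, and its place depends on that length.

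Because the members differ in reads, the CD44minus levels were set against the reads that stray fragments alone would give. The rate was taken from 1415 receptor genes of smell and pheromones, which are used chiefly in sensory neurons, and multiplied by the exon length of each gene. It was 3.09 and 0.827 reads per coding kb in Sox4cKO CD44minus and 2.05 and 2.01 in control CD44minus. Exon lengths were merged over all transcripts in GENCODE M21, 6509 bases for Cd69, and the annotation used in counting is not known. A shorter counted length would give fewer predicted reads. Gzma had 83 and 1165 reads in Sox4cKO CD44minus and 65 and 201 reads in control CD44minus, where at most 3.10 were predicted. Cd69, the member with the longest exons, had 13 reads in Sox4cKO CD44minus replicate 1 and 6 and 6 reads in the control CD44minus libraries, where 20.1, 13.3 and 13.1 reads were predicted, so in these 3 libraries its reads did not exceed the prediction. In Sox4cKO CD44minus replicate 2 it had 50 reads (95% Poisson interval 37.1 to 65.9) where 5.38 were predicted. The interval also reached down to the prediction for Cd3g in Sox4cKO CD44minus replicate 1, with 15 reads against 10.1, and for Cd8b1 in control CD44minus replicate 2, with 2 reads against 2.99. For the other members and libraries the interval lay above the prediction, and these intervals cover counting error only.

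**Figure D2:**
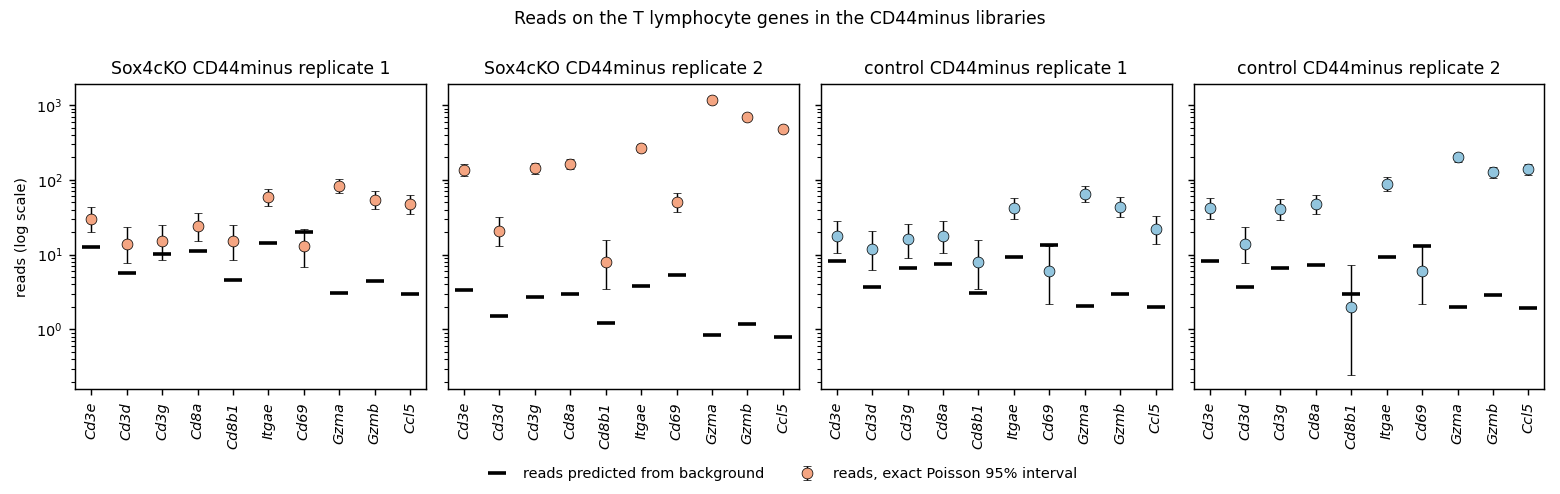
Reads (log axis) on each T lymphocyte gene in the 4 CD44minus libraries, with exact 95% Poisson intervals, beside black bars at the reads predicted from the rate on receptor genes of smell and pheromones. Gzma, Gzmb, Ccl5 and Itgae lie above the bars in all 4 libraries, and Cd69 lies below its bar in all but Sox4cKO CD44minus replicate 2.

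The first comparison asked whether the T lymphocyte genes differed between the CD44plus and CD44minus gates of the same genotype. Cells were sorted by CD44, and where the lymphocytes lay along crypt and villus was not measured. All 10 genes were higher in CD44plus than in CD44minus, in both libraries of each genotype. In Sox4cKO mice Cd69, Cd3e and Itgae rose in CD44plus, and in control mice Cd69, Cd3e and Cd8a rose. Thus 3 of 10 members were called in each genotype by edgeR's quasi-likelihood test with Benjamini-Hochberg adjustment over all genes, where 2.58% of all genes were called in Sox4cKO (1.65% as higher in CD44plus) and 2.46% in control (2.01% as higher). In Sox4cKO both CD44plus libraries lay above both CD44minus libraries for 10 of 10 members and for 21.1% of all genes, and in control for 10 of 10 members and 38.7% of all genes.

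For Cd69 the log2 fold change of CD44plus over CD44minus was 4.45 ± 0.84 (SE) in Sox4cKO, a 21.9-fold difference with an edgeR adjusted p of 0.0146. In control it was 5.09 ± 0.91, a 34.1-fold difference with an edgeR adjusted p of 0.0141, but both control CD44minus libraries and replicate 1 of Sox4cKO CD44minus had fewer Cd69 reads than the predicted stray reads, so the data fix the size of neither fold. After subtraction of these reads the Sox4cKO value was 5.32. For Cd3e the difference was 2.98 ± 0.75 in Sox4cKO (7.87-fold, edgeR adjusted p = 0.0419) and 3.47 ± 0.78 in control (11.1-fold, edgeR adjusted p = 0.0274). The 2 genes were called in both genotypes, one a residency marker and one a chain of the receptor complex.

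Itgae passed the threshold in Sox4cKO, with a log2 fold change of 3.75 ± 0.96 (13.4-fold, edgeR adjusted p = 0.0433), and had 3.41 ± 0.95 in control (edgeR adjusted p = 0.0648). Cd8a passed in control, with 3.12 ± 0.81 (8.71-fold, edgeR adjusted p = 0.0495), and had 2.85 ± 0.79 in Sox4cKO (edgeR adjusted p = 0.0624). These values lie close to the threshold on either side, and the test of the difference between genotypes, given below, called neither gene. The members outside the calls in both genotypes were Cd3d, Cd3g, Cd8b1, Gzma, Gzmb and Ccl5. Their log2 fold changes ran from 2.08 for Gzmb to 2.91 for Cd3g in Sox4cKO and from 1.83 for Cd3d to 3.72 for Gzma in control, with edgeR adjusted p from 0.0555 to 0.26 in Sox4cKO and from 0.0685 to 0.16 in control. All 10 members had an unadjusted p under 0.05 in both genotypes, as did 17.7% of all genes in Sox4cKO and 23% in control.

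Some markers of other cell types were also higher in CD44plus, while other genes of the same lists were not. The summed level of 9 mast cell genes was 3725 and 17894.5 CPM in Sox4cKO CD44plus, against 102 and 80.3 CPM in Sox4cKO CD44minus, and 1935 and 3204 CPM in control CD44plus, against 84.8 and 67.9 CPM in control CD44minus. Of these genes 6 rose in CD44plus in Sox4cKO and 4 in control, among them Mcpt1, a mast cell protease, at 1710-fold in Sox4cKO (edgeR adjusted p = 0.0138) and 543-fold in control (edgeR adjusted p = 0.0202). Of 16 macrophage and dendritic cell genes 2 rose in Sox4cKO, Itgax (24-fold) and the lysozyme gene Lyz2 (8.95-fold), and Lyz2 alone rose in control (7.92-fold). Their summed level was 312 and 656 CPM in Sox4cKO CD44plus, against 208 and 83.0 CPM in Sox4cKO CD44minus, and 206 and 304 CPM in control CD44plus, against 170 and 123 CPM in control CD44minus. Of the 16 genes 11 were positive in Sox4cKO, with a median log2 fold change of 0.51, and 8 in control, with a median of -0.12. Of 13 B and plasma cell genes 1 rose, Igj, the joining chain of secreted antibodies, at 95.03-fold in Sox4cKO and 9.76-fold in control. In this list 9 genes were positive in Sox4cKO (median 0.44) and 5 in control (median -0.16). Of 13 stromal and endothelial genes 2 rose in Sox4cKO and 1 in control, and Vim, an intermediate filament gene of leukocytes as well as stroma, was called in both, at 19.8-fold in Sox4cKO and 25.2-fold in control. Only 2 of the 13 were positive in each genotype, and the medians were -1.78 in Sox4cKO and -2.06 in control. Of 9 tested genes of natural killer and innate lymphoid cells 0 were called in either genotype, and 4 were positive in each. The list sums were not set against predicted stray reads, so how far low CD44minus sums exceed background is not known. The part of these other cell types in the gate difference of the 10 genes was not tested.

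The median log2 fold change of the 10 members was 2.70 in Sox4cKO and 3.36 in control, beside medians of -0.48 and -0.19 over all genes tested. Since both gates came from the same mice, the fit with the animal as a block also applies, and it called 7 of 10 members in Sox4cKO, where it called 8.37% of all genes, and 10 of 10 in control, where it called 17.9%. DESeq2 called 9 members in Sox4cKO (7.65% of all genes) and 8 in control (9.17%), edgeR without the filter on low counts called 6 (3.9%) and 7 (4.38%), and edgeR after subtraction of the predicted stray reads called 8 (10.7%) and 8 (11.8%). Fits of the 4 libraries of a genotype alone called 0 members and 0% of all genes in Sox4cKO, and 10 members and 54.8% of all genes in control.

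The calls between gates depended on single libraries. In Sox4cKO 0 members were called without Sox4cKO CD44plus replicate 2 (0.0534% of all genes) and 5 without Sox4cKO CD44plus replicate 1 (2.49%). Without Sox4cKO CD44minus replicate 1 there were 7 (16.6% of all genes), and without Sox4cKO CD44minus replicate 2 there were 9 (40.9%). Cd69 alone of the members was called in Sox4cKO when 1 control library was left out, among 2.12% and 1.46% of all genes without control CD44minus replicate 1 or 2 and 1.11% and 1.18% without control CD44plus replicate 1 or 2. In control 0 members were called without control CD44minus replicate 1 (0.167% of all genes), control CD44minus replicate 2 (0%) or control CD44plus replicate 2 (0.0291%), and Cd69 alone without control CD44plus replicate 1 (0.118%). Without Sox4cKO CD44plus replicate 1 or 2 the control counts were 5 (2.97% of all genes) and 4 (1.62%). Without Sox4cKO CD44minus replicate 1 or 2 the control count was 10, among 36.4% and 34.6% of all genes. A fit that lacks 1 library of a pair assumes that the remaining one varies like the other groups. The log2 fold change of every member was positive in each of these fits.

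**Figure D3:**
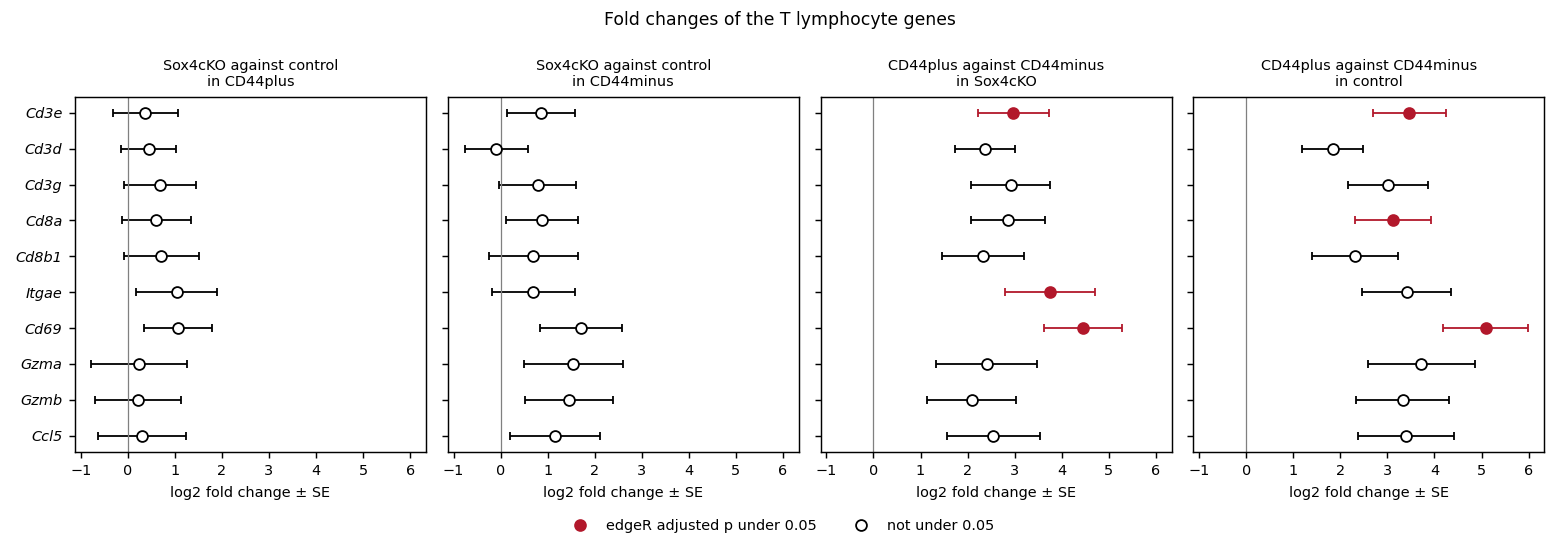
Log2 fold change with its SE for each T lymphocyte gene, in 4 panels for Sox4cKO against control in CD44plus, the same in CD44minus, and CD44plus against CD44minus in Sox4cKO and in control. Filled red points are the edgeR calls, which are Cd3e, Itgae and Cd69 for the gates in Sox4cKO and Cd3e, Cd8a and Cd69 for the gates in control, and no point is filled in the genotype panels.

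The second comparison set Sox4cKO against control in crypt-enriched cells. None of the 10 members was called in CD44plus, where edgeR and DESeq2 called 0 of all genes (0%), and 0 members had an unadjusted p under 0.05, as 128 of all genes did in edgeR's fit. Sox4, the deleted gene, was not called either, at -2.51 ± 0.61 (SE) with an unadjusted edgeR p of 0.00064. The lack of a call here thus does not show that a gene was unchanged. The log2 fold changes were positive for all 10 members, with a median of 0.53 beside -0.00049 over all genes, and 49.95% of all genes were positive. They were 1.07 ± 0.72 (SE) for Cd69, 1.04 ± 0.86 for Itgae, 0.71 ± 0.79 for Cd8b1, 0.68 ± 0.77 for Cd3g and 0.61 ± 0.74 for Cd8a, and between 0.22 and 0.45 for Gzmb, Gzma, Ccl5, Cd3e and Cd3d. The edgeR adjusted p was 1 for each gene. The members called stayed at 0 in the alternative fits, which called 0.0997% of all genes with the 4 CD44plus libraries alone, 0.119% without Sox4cKO CD44minus replicate 1, 0.0194% without Sox4cKO CD44minus replicate 2, and 0% with DESeq2, with the animal block, without the filter, after subtraction and without each of the other 6 libraries in turn.

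The positive values rested largely on Sox4cKO CD44plus replicate 2. Without that library 8 of the 10 members had a negative log2 fold change, from -0.059 for Cd69 to -0.48 for Gzma, and Itgae had 0.01 and Cd8b1 0.45. Replicate 1 of Sox4cKO CD44plus lay below both control CD44plus libraries for Cd3e and Gzma, above both for Cd8b1, and between them for the other members. The Sox4cKO CD44plus means of Gzma, Gzmb and Ccl5 were 952, 461 and 452 CPM. They lay below control CD44plus replicate 2, at 972, 491 and 497 CPM, so these signs also leaned on control CD44plus replicate 1.

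Sums of markers of other immune cells were highest in the same library. The 9 mast cell genes, whose CD44plus sums are given above, all had reads in every library, and 9 of 9 had a positive log2 fold change with 0 called. The 16 macrophage and dendritic cell genes all had reads in the CD44plus libraries, and 15 were positive. Itgae is also known from mucosal mast cells and dendritic cells, and Ptprc is shared by all of these cells. For 11 genes of natural killer and innate lymphoid cells, which share granzymes and Ccl5 with T cells, the sums were 103 and 255 CPM in Sox4cKO CD44plus and 64.6 and 111 CPM in control CD44plus, with 2 and 3 genes at 0 reads in Sox4cKO CD44plus and 1 and 2 in control CD44plus. For 13 B and plasma cell genes they were 212 and 238 CPM in Sox4cKO CD44plus and 131 and 220 CPM in control CD44plus. The part of these cells in the levels of the 10 genes was not tested. The summed level of 13 epithelial genes was 9999.7 and 8669 CPM in Sox4cKO CD44plus and 9297 and 8853 CPM in control CD44plus.

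**Figure D4:**
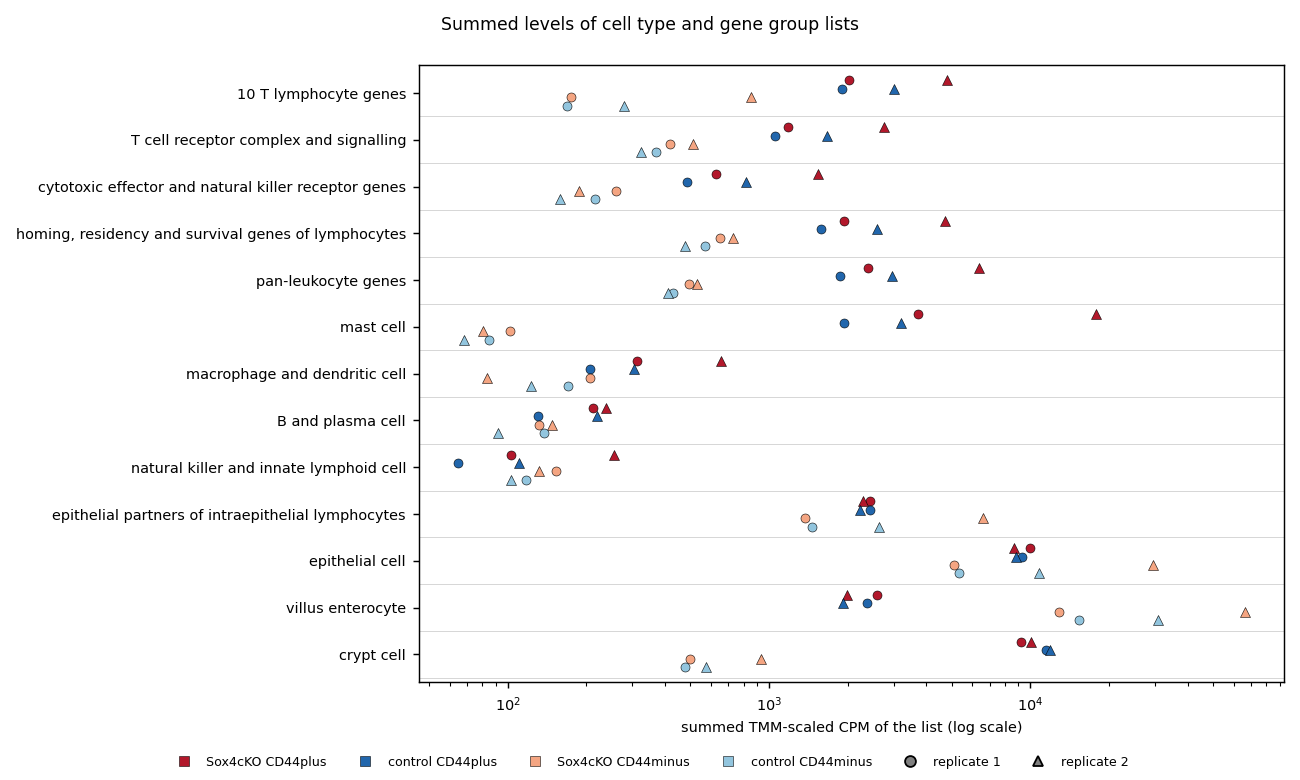
Summed TMM-scaled CPM (log axis) of the 10 T lymphocyte genes and of 12 other gene lists in each library, by group (colour) and replicate (shape). In Sox4cKO CD44plus replicate 2 the T lymphocyte sum is 4822 CPM and the mast cell sum 17894.5 CPM, while the sums of epithelial genes of the 4 CD44plus libraries lie close together.

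In villus-enriched cells, Sox4cKO against control called 0 of 10 members and 0 of all genes (0%) with edgeR, as with DESeq2. Of the members 0, and of all genes 116, had an unadjusted p under 0.05 in edgeR's fit. Sox4 itself, at -2.95 ± 0.84 (SE), was again not called, so the lack of a call does not show an unchanged gene. For the members, the values were as follows. The log2 fold changes were positive for 9 members and negative for Cd3d (-0.09 ± 0.67, SE), with a median of 0.87 beside 0.19 over all genes, of which 57.5% were positive. They were 1.71 ± 0.86 for Cd69, 1.54 ± 1.05 for Gzma, 1.45 ± 0.93 for Gzmb and 1.15 ± 0.95 for Ccl5, each with an edgeR adjusted p of 1.00. Cd69 was the only member whose Sox4cKO CD44minus libraries both lay above both control CD44minus libraries, an order that 6.5% of all genes had, and 3 of these 4 values did not exceed the predicted stray reads.

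For 6 of the 9 members with a positive value the sign rested on Sox4cKO CD44minus replicate 2. Without Sox4cKO CD44minus replicate 2 the log2 fold change was negative for Cd3g (-0.89), Ccl5 (-0.61), Gzma (-0.60), Gzmb (-0.59), Cd8a (-0.42) and Itgae (-0.13). It was 0.026 for Cd3e and 0.061 for Cd3d, and it was 1.07 for Cd69 and 1.44 for Cd8b1, which stayed positive without that library. Without Sox4cKO CD44minus replicate 1, which left replicate 2 alone, 7 of 10 members were called in a fit that called 37.7% of all genes. In that library the sum of 13 villus enterocyte genes was also high, at 66348 CPM beside 12847 CPM in Sox4cKO CD44minus replicate 1 and 15391 and 30697 CPM in control CD44minus. Its part in the levels of the T lymphocyte genes was not tested.

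The genotype effect was then compared between gates as an interaction. It called 0 of 10 members and 0 of all genes (0%) with edgeR and with DESeq2, and 0 members and 50 genes had an unadjusted p under 0.05 in edgeR's fit. The difference of log2 fold changes, CD44plus minus CD44minus, was positive for 3 members and negative for 7, from -1.31 ± 1.45 (SE) for Gzma to 0.54 ± 0.88 for Cd3d. Its median over the members was -0.38, beside -0.37 over all genes. Without Sox4cKO CD44minus replicate 1 the interaction was called for 1.26% of all genes and for 0 members.

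Each level was also divided by the summed level of the CD3 chains in the same library. In CD44plus this ratio for Itgae was 1.41 and 1.77 in Sox4cKO, against 1.15 and 1.14 in control. For Cd69 it was 0.425 and 0.586 in Sox4cKO, against 0.310 and 0.399 in control, and for Cd8a 0.529 and 0.488 in Sox4cKO, against 0.455 and 0.471 in control. For Gzma it was 2.42 and 2.25 in Sox4cKO, against 2.69 and 2.81 in control. Thus 3 of the 7 members outside the CD3 complex had both Sox4cKO ratios above both control ratios, 1 had both below, and Gzmb, Ccl5 and Cd8b1 overlapped. Of all other genes tested, 3.14% had both Sox4cKO ratios above both control ratios and 10.9% had both below. For Cd8a the nearest values, 0.488 in Sox4cKO and 0.471 in control, lay close together. The 893 Cd8a reads of control CD44plus replicate 2 alone had a 95% Poisson interval of 835 to 954. With 2 libraries per group no test was made on these ratios. The mast cell and dendritic cell sums given above were also higher in both Sox4cKO CD44plus libraries than in both control CD44plus libraries, and their part in these ratios was not tested.

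Between gates the ratio for Cd69 was higher in CD44plus, at 0.425 and 0.586 in Sox4cKO CD44plus, against 0.220 and 0.167 in Sox4cKO CD44minus, and at 0.310 and 0.399 in control CD44plus, against 0.130 and 0.0619 in control CD44minus. In 3 of these 4 CD44minus libraries the Cd69 reads did not exceed the predicted stray reads. Those ratios are thus not above background by that prediction, and after subtraction they were 0. Itgae had 1.14 or more in CD44plus and 1.00 or less in CD44minus, but the gates overlapped after subtraction, with 1.5 and 0.911 in Sox4cKO CD44minus and 1.22 and 1.03 in control CD44minus. Gzma had 1.41 and 3.90 in Sox4cKO CD44minus and 1.41 and 2.07 in control CD44minus, and after subtraction 2.67 and 4 in Sox4cKO CD44minus and 2.33 and 2.55 in control CD44minus. Ccl5 had 0.797 and 1.61 in Sox4cKO CD44minus and 0.478 and 1.42 in control CD44minus, and after subtraction 1.47 and 1.65 in Sox4cKO CD44minus and 0.741 and 1.74 in control CD44minus. The spread between replicates of these effector ratios was thus smaller after subtraction for Gzma in both genotypes and for Ccl5 in Sox4cKO.

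**Figure D5:**
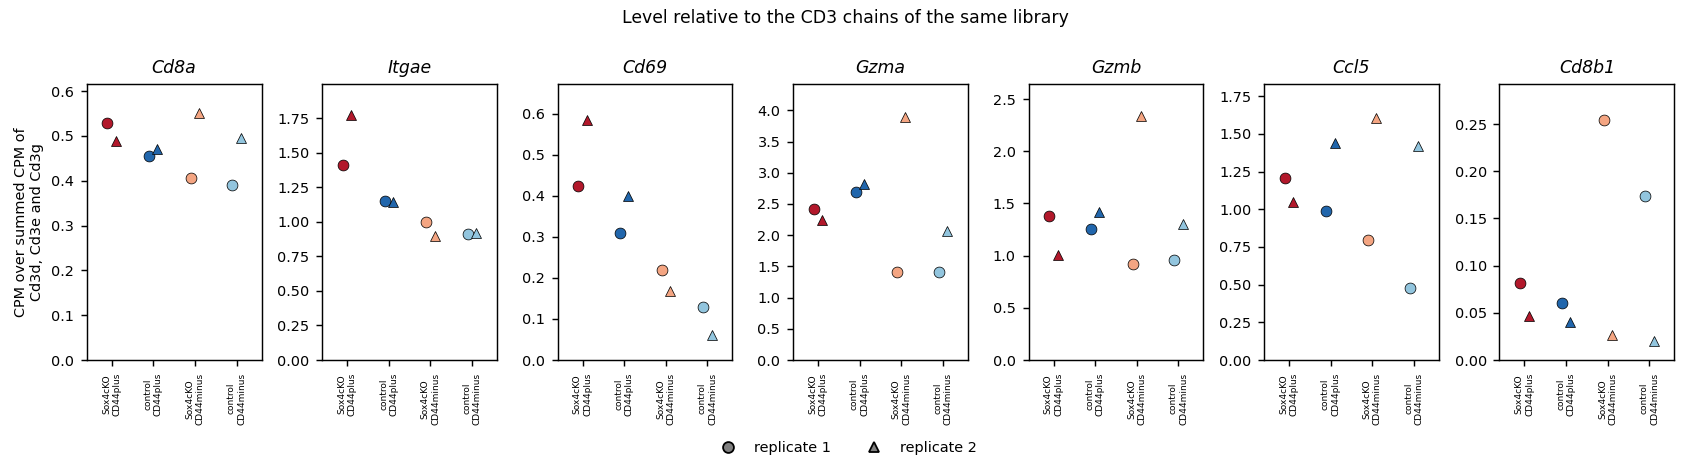
Level of 7 T lymphocyte genes divided by the summed CPM of Cd3d, Cd3e and Cd3g in the same library (linear axes from 0), by group and replicate. Itgae, Cd69 and Cd8a are higher and Gzma is lower in both Sox4cKO CD44plus libraries than in both control CD44plus libraries.

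Other genes of the T cell receptor complex and its signalling were also higher in CD44plus. Of 30 such genes, 6 rose in CD44plus in Sox4cKO and 4 in control, 29 and 24 were positive, and the medians were 1.97 in Sox4cKO and 1.57 in control. Beside this list and those below, 1.65% of all genes were called as higher in Sox4cKO and 2.01% in control. Of all genes 39.8% were positive in Sox4cKO and 47.2% in control. Zap70, the kinase that binds the phosphorylated CD3 chains, had a log2 fold change of 2.76 ± 0.65 (SE, edgeR adjusted p = 0.0305) in Sox4cKO and 3.20 ± 0.70 (edgeR adjusted p = 0.0257) in control. Fyn, a kinase of the Src family, and Tcf7, a transcription factor of T cells, were also called in both genotypes. Thy1, Fyb and Lcp2 were called in Sox4cKO and Cd7 in control, and no test of the difference between genotypes called any of them. In Sox4cKO against control, 0 of the 30 were called in either gate, with medians of 0.58 in CD44plus (28 positive) and 0.15 in CD44minus (19 positive). The 7 symbols of T cell receptor constant genes looked for are not among the rows used here, so alpha beta and gamma delta T cells could not be set apart.

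Of 40 cytotoxic and natural killer receptor genes 38 were tested, and 10 rose in CD44plus in Sox4cKO and 6 in control, with medians of 1.03 and 1.00 and 26 positive in each genotype. Both CD44plus libraries lay above both CD44minus libraries for 20 genes in each genotype. They lay below both for 1 gene in Sox4cKO and 9 in control. Srgn, the proteoglycan that packs granzymes into granules, had a log2 fold change of 4.23 ± 0.81 (SE, edgeR adjusted p = 0.0153) in Sox4cKO and 4.24 ± 0.85 (edgeR adjusted p = 0.0184) in control. Nkg7, a granule membrane protein, Ctsw, a protease of cytotoxic cells, and Cd160, a receptor of intraepithelial lymphocytes, were called in both genotypes. Prf1, which encodes the pore-forming protein through which granzymes enter target cells, was low, with 5.35 and 11.8 CPM in Sox4cKO CD44plus and 4.28 and 8.58 CPM in control CD44plus, against 13.8 and 5.72 CPM in Sox4cKO CD44minus and 8.08 and 1.57 CPM in control CD44minus. The gates overlapped for Prf1, whose reads were not set against predicted stray reads. None of the 38 was called between genotypes, with medians of 0.55 in CD44plus and 0.30 in CD44minus.

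Of 40 homing, residency and survival genes, 7 rose in CD44plus in Sox4cKO and 3 in control, with medians of 1.75 and 1.51 and 33 positive in each genotype. For 3 genes in Sox4cKO and 5 in control both CD44plus libraries lay below both CD44minus libraries. Itgb7, the integrin chain that pairs with the product of Itgae, had a log2 fold change of 3.26 ± 0.67 (SE, edgeR adjusted p = 0.0188) in Sox4cKO and 3.17 ± 0.69 (edgeR adjusted p = 0.0254) in control. Il2rg, the receptor chain shared by several cytokines that T cells need, was called in both genotypes too. Runx3, a transcription factor of CD8 T cells, was called in Sox4cKO, at 2.99 ± 0.73 (edgeR adjusted p = 0.0365). Between genotypes 0 of the 40 were called, with medians of 0.65 in CD44plus and 0.41 in CD44minus.

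Genes by which the epithelium holds and feeds these lymphocytes had negative medians between gates. Of 23 such genes 21 were tested, 0 rose in CD44plus in either genotype, and 2 fell in Sox4cKO: Il18, a cytokine, by 2.92 ± 0.68 on the log2 scale (SE, edgeR adjusted p = 0.029), and Btnl2, a butyrophilin-like gene, by 3.36 ± 0.82 (edgeR adjusted p = 0.0364). In control 0 were called, and the medians were -1.67 in Sox4cKO and -0.63 in control. Cdh1, the E-cadherin that binds the integrin of Itgae, was not called in either gate comparison. Between genotypes 0 of the 21 were called, with medians of 0.0042 in CD44plus and 0.77 in CD44minus.

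Pan-leukocyte genes were also higher in CD44plus, and their sum was highest in Sox4cKO CD44plus replicate 2. Of 29 such genes 28 were tested, 19 rose in CD44plus in Sox4cKO and 9 in control, and in Sox4cKO against control 28 of 28 were positive in CD44plus with a median of 0.87 and 0 called. Their summed level was 2386 and 6346 CPM in Sox4cKO CD44plus and 1874 and 2951 CPM in control CD44plus, against 494 and 530 CPM in Sox4cKO CD44minus and 430 and 411 CPM in control CD44minus. These sums, too, were not set against predicted stray reads. Ptprc, the CD45 gene of all leukocytes, was divided by the CD3 sum as the members were, and its ratio was 1.44 and 1.44 in Sox4cKO CD44plus, against 1.19 and 1.29 in control CD44plus.

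The members varied together. Over the 8 libraries, which share the gate difference and depth, the 45 pairs of members had a median Pearson correlation of logged levels of 0.957, from 0.617 for Cd8b1 with Ccl5 to 0.999 for Gzma with Gzmb. Over the 4 CD44plus libraries the median was 0.947 and the lowest value was 0.513, for Cd8b1 with Gzma. The genes most like the mean of the members over the 8 libraries were Rfc2, Ctsw, Cd52, Cnn2, Sesn3, Fnbp1, Tgfbr2, Ptprc, Coro1a and Rpa1, with correlations from 0.998 to 0.994. Of 10883 genes compared 2254 had a correlation above 0.9, so a high value sets few genes apart. Over the 4 CD44plus libraries the nearest were Prex1, Cyfip2, Os9, Cpne5, Sla2, Atp13a4, Eif3l, Cst7, Rfc1 and Ptk2b, and 1809 genes were above 0.9.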

How the data were processed

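RNA of 8 sorted libraries was analysed from the deposited raw read counts per gene symbol, 1 table per library. Per the labels, total RNA went into a stranded kit for very small inputs. Among the tools in the submitters' processing notes are HTSeq 0.6.1p1, STAR 2.2.5b, Trimmomatic 0.36 and bcl2fastq 2.17.4, with the build mm10 and no settings. HTSeq's summary lines were left out of library sizes.

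The counts were analysed in R 4.3.3. The main analysis was edgeR 4.0.16's quasi-likelihood test on the 4 groups in all 8 libraries, after filterByExpr with a minimum count of 10 and TMM scaling. P-values were adjusted by Benjamini-Hochberg over 20427 genes, with a threshold of 0.05, in 5 comparisons. The SE is the log2 fold change over the square root of F. The biological coefficient of variation was 0.616. Alternatives were DESeq2 1.42.0, RLE scaling, no filter, fits of 4 libraries, the animal as a block (limma 3.58.1 for genotypes), subtraction of predicted stray reads and leaving out each library. The procedure was also run on simulated counts. These had the same spread in every group, unlike the libraries here, so that run does not measure how well real differences are found.

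The animal number in the table names is the same for both gates of a replicate and genotype, giving 4 animals, so the gates are paired by animal. Deviations from group means correlated between the gates at 0.493 in Sox4cKO and 0.102 in control. With 0 reads the limit was set at 3 counts, or 0.227 to 3.39 CPM depending on the library. Gene places come from GENCODE M21, in which 98.5% of symbols were matched by symbol or synonym.

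The members and lists were chosen with earlier results of these data known. All 10 members are named in each comparison, and for each list the genes called (up to 6 by smallest p), with others for their role. Prf1 and Cdh1 were named for their role after their values were seen.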

Additional observations from a re-analysis of the deposited data

How the results depend on the processing

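Sox4cKO against control called 0 members in CD44plus and 0 for the difference between gates under every alternative, and in CD44minus under every alternative but 1 library left out (0 to 7). For CD44plus against CD44minus, the members called in Sox4cKO and in control were 9 and 8 with DESeq2, 6 and 7 without a filter, 0 and 10 in fits of 4 libraries, 8 and 8 after subtraction of stray reads, and 7 and 10 with the animal as replicate block, which changed no call between genotypes. Leaving out 1 library gave 0 to 9 in Sox4cKO and 0 to 10 in control. The cause of these shifts was not tested. All gate differences kept their sign.

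Genotype differences changed sign when single libraries were left out. In CD44plus the log2 fold changes ran from -0.24 to 0.69 for Cd3e, -0.18 to 0.78 for Cd3d, -0.39 to 1.20 for Cd3g, -0.10 to 0.99 for Cd8a, -0.059 to 1.61 for Cd69, -0.48 to 0.62 for Gzma, -0.26 to 0.61 for Gzmb and -0.34 to 0.93 for Ccl5. In CD44minus they ran from -0.37 to 0.19 for Cd3d, -0.89 to 1.48 for Cd3g, -0.42 to 1.49 for Cd8a, -0.32 to 2.52 for Cd8b1, -0.13 to 1.19 for Itgae, -0.60 to 2.34 for Gzma, -0.59 to 2.23 for Gzmb and -0.61 to 2.37 for Ccl5. Over all genes the median gate difference was -0.48 in Sox4cKO and -0.19 in control under TMM, -0.72 and -0.52 under RLE scaling, and 0.17 and 0.11 after subtraction. The library in which all 10 members were highest was the same without TMM and after subtraction, and the 4 of 7 ratios to the CD3 sum that did not overlap between genotypes in CD44plus were the same after subtraction. Ratios within a library do not depend on TMM. Depth limited the CD44minus values, where a member could rest on 2 reads.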
